A study of Mus musculus with 4 samples.

Results

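Polycomb proteins keep developmental genes silent, and the accessibility of the genes that encode them was examined here in mouse embryonic stem cells (ESCs). The set comprised 10 genes, taken by name from the 21938 protein-coding genes of GENCODE mouse release 21 on the 21 assembled chromosomes. They were 3 core subunits of Polycomb repressive complex 2 (Ezh2, Eed and Suz12), the PRC2 cofactor Jarid2, the 2 RING ubiquitin ligases of PRC1 (Rnf2 and Ring1), and 4 subunits of the variant complex PRC1.6 (Pcgf6, L3mbtl2, Mga and E2f6). The genes were listed by name, with no threshold on a measured value, although earlier results of these data were known when the list was drawn up.

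Chromatin accessibility had been measured by ATAC-seq, in which a transposase inserts sequencing adapters into open DNA, in E14 mouse ESCs grown in serum with LIF. All cells had been infected with a pLKO lentivirus that carried a short hairpin, kept in puromycin for 2 days to select infected cells, and collected 2 days later. There was 1 library with a hairpin against GFP (shGFP) and 3 with a hairpin against luciferase (shLuc replicates 1, 2 and 3). Neither target is a mouse gene, so both groups are controls, no member was knocked down, and the question the libraries can answer is which Polycomb genes carry open sites and how far control libraries differ there.

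Each library came as a list of peak positions with no height, score or p-value, so peaks could be ranked by width alone, and the depth of the libraries is unknown from the lists. The lists held 41943 peaks for shGFP and 17860, 41401 and 31585 peaks for shLuc replicates 1, 2 and 3, so shLuc replicate 1 stood apart as the shortest list. No test across samples was run, because an exact permutation test of 1 library against 3 cannot go below p = 0.25. A list from bulk cells cannot tell a site that is open in few cells from one that is weakly open in all of them, and the absence of a peak says that none was called, not that the site was closed. The markers of pluripotent cells were only partly represented: the starts of Pou5f1, Nanog and Sox2 had no peak within 1 kb in any library, those of Klf4 and Esrrb in 2 each, and those of Zfp42 in all 4. Of 5 genes of differentiated cells, Sox17 was marked in all 4 libraries, Myod1 in 1, and the starts of Alb, Gata4 and Hba-a1 in none.

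Polycomb group proteins act in 2 main families of complexes. PRC2 methylates a lysine in the tail of histone H3, and PRC1 attaches ubiquitin to a lysine of histone H2A, a pair of marks that accompany the silencing of developmental genes in ESCs. PRC1.6 is a PRC1 variant that also contains sequence-specific DNA-binding proteins, and it is known in ESCs for keeping germline genes off. The promoters of genes for such general regulators are often CpG islands, stretches in which the dinucleotide CG has not been depleted.

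The promoters of all 10 members were of this kind. In the RefSeq promoter table (GRCm38.p6), which spans 250 bases before to 50 bases after a start, all 10 members were matched, with 11 promoters because Jarid2 has 2. Their GC content ran from 54.7% to 74.0% and their observed over expected CpG ratio from 0.74 to 1.09, beside medians of 52.7% and 0.38 over the 32851 promoters of the table. A promoter was called CpG-rich here at a GC content of at least 50% and a ratio of at least 0.6, and 50.1% of the 16505 coding genes that could be matched reached this.

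Sequences are shown for 5 promoters that cover the range of what was found, from a peak in every library to a peak in none. Each runs from 250 bases before to 30 bases after the RefSeq start, 5′ to 3′ on the strand of the gene, and capitals mark matches, on either strand, to the GC box GGGCGG, the CCAAT box CCAAT, the TATA box TATAAA, the E2F words TTTCCCGC, TTTCGCGC, TTTGCCGC and TTTGGCGC, the NRF1 word GCATGCGC and the YY1 word AAGATGGC. The Ezh2 promoter lies at chr6:47595001-47595280 on the minus strand and Suz12 at chr11:79992856-79993135 on the plus strand, and both had a peak in all 4 libraries. E2f6 at chr12:16810715-16810994, plus strand, had a peak in 2 libraries, Ring1 at chr17:34024651-34024930, minus strand, in 1, and the downstream of the Jarid2 promoters at chr13:44731021-44731300, plus strand, in none.
Ezh2: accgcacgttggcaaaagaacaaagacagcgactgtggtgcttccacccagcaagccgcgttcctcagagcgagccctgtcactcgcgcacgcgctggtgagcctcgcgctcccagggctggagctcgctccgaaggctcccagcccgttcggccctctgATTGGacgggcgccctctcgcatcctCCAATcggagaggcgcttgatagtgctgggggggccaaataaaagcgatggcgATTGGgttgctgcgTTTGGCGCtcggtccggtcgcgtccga
Suz12: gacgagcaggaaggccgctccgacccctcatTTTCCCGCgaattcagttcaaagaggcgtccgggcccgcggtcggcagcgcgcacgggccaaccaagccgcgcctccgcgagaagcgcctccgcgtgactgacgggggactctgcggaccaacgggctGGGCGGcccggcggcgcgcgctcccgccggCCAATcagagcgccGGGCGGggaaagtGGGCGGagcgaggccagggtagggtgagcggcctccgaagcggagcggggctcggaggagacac
E2f6: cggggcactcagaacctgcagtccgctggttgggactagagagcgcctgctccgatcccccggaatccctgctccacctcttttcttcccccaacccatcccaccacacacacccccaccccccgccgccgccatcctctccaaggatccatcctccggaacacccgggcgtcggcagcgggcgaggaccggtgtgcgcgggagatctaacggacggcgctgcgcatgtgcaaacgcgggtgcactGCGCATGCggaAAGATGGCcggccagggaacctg
Ring1: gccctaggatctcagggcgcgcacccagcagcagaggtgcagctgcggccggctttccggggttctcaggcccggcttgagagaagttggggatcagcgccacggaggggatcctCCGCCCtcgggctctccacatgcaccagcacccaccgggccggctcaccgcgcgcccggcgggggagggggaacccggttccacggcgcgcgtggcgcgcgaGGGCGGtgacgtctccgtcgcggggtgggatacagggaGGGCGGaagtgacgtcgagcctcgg
Jarid2: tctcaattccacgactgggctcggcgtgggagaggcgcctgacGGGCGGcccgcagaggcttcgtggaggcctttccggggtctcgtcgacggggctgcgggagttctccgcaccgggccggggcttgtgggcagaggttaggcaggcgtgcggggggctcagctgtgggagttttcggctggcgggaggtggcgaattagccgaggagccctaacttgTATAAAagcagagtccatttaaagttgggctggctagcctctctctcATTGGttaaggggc

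Words for E2F were present in the promoters of Ezh2 (TTTGGCGC) and Suz12 (TTTCCCGC), 2 of the 10 members, and in 2.26% of all promoters and 5.03% of the 10995 CpG-rich ones. E2f6, itself an E2F family repressor, held an NRF1 word across its start (6.29% of CpG-rich promoters) and a YY1 word 7 bases after it (4.87%). The GC box was found in 6 members (75.8% of CpG-rich promoters), and the CCAAT box in 5 members (35.3%). The downstream Jarid2 promoter was the only member promoter with a TATA box, 31 bases before the start, a word held by 4.57% of CpG-rich promoters. The E-box CACGTG, a word recognised by MGA with its partner MAX, and the ETS word CCGGAAGT were in none of the 11 member promoters, and in 11.5% and 8.65% of CpG-rich promoters. GC boxes were present in Suz12, Rnf2, Pcgf6 and Mga, which had peaks in all libraries, and also in Ring1 and Jarid2. These are matches of letters and no evidence that a factor was bound.

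A promoter peak was defined as a peak with at least 1 base within 1 kb of any annotated transcript start of the gene. Of the 10 members, 6 had one in all 4 libraries (Ezh2, Suz12, Rnf2, Pcgf6, L3mbtl2 and Mga), beside 42.5% of all coding genes. Eed had a promoter peak in 3 libraries, E2f6 in 2, Ring1 in 1 and Jarid2 in none. Among the 8273 coding genes with a CpG-rich promoter, 70.6% had a promoter peak in all 4 libraries and 5.35% in none, so the count of 6 among 10 CpG-rich members was near the share of CpG-rich genes at large. By library, 8 members had a promoter peak in shGFP (60.7% of coding genes), 7 in shLuc replicate 1 (46.8%), 9 in replicate 2 (60.3%) and 6 in replicate 3 (55.1%).

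**Figure D1:**
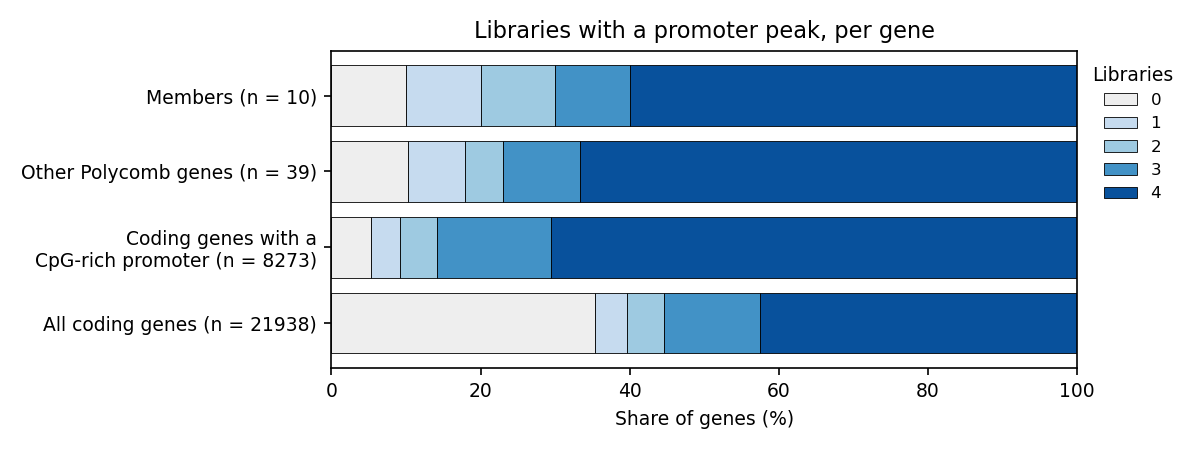
Share of genes (x axis, %) by the number of ATAC-seq libraries with a promoter peak, from 0 (palest) to 4 (darkest), for the 10 members, 39 other Polycomb genes, 8273 coding genes with a CpG-rich promoter and all 21938 coding genes. The darkest part is 60% for the members, 66.7% for the other Polycomb genes, 70.6% for CpG-rich genes and 42.5% for all coding genes.

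Ezh2 encodes the catalytic subunit of PRC2. It is on the minus strand of chr6:47530139-47595341, and its widest promoter peak measured 1365 bp in shGFP and 974, 1805 and 1484 bp in shLuc replicates 1, 2 and 3. All 4 peaks covered 3 of its 12 annotated starts, and the shGFP value lay inside the range of the shLuc libraries (mean 1421 bp ± 419.1, SD, n = 3). Set against the widest promoter peaks of all coding genes in the same library, these were at the 84.6th, 81.3rd, 97.4th and 93.1st percentile, so the Ezh2 promoter peak was among the wide ones in every list. The merged promoter region, chr6:47594111-47595915, overlapped an exon and had a CpG ratio of 0.89.

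Eed, the subunit that binds the methylated lysine, lies on the minus strand of chr7:89954654-89980983. Its promoter peak was 1292 bp wide in shGFP, 702 bp in shLuc replicate 1 and 1431 bp in replicate 2, and replicate 3 had none within 1 kb of a start. A loss in this library alone was found for 2.18% of coding genes. The Eed peak was not narrow in the libraries that had it. Of 4792 coding genes with a promoter peak of at least 702 bp in all the other libraries, 3.28% had none in shLuc replicate 3, beside 14.7% of 7776 genes for replicate 1, 0.397% of 4533 for replicate 2 and 0.533% of 4507 for shGFP. Replicate 3 did have a peak of 392 bp in an intron of Eed, and shLuc replicate 2 one of 357 bp there, at chr7:89975608-89976006, which was 3310 bases from the nearest start. A start of the noncoding gene E230029C05Rik lies within 1 kb of the Eed promoter region, so the peak cannot be assigned to Eed alone.

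Suz12, the scaffold of PRC2, is on the plus strand of chr11:79993106-80034123. Its promoter peaks measured 1418 bp in shGFP and 757, 1194 and 732 bp in the shLuc libraries (mean 894.3 bp ± 259.8, SD, n = 3). The shGFP peak was wider than each shLuc peak, 1.59 times their mean. Its percentile ran from 29.7 in shLuc replicate 3 to 87.2 in shGFP, the widest span of the members with 4 peaks. Upstream of the start all 4 peaks reached similar distances, from 503 to 688 bases, and downstream they ended between 228 and 729 bases, so the libraries differed more on the transcribed side.

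Jarid2 encodes a cofactor that helps PRC2 to reach its targets in ESCs. It is the longest member, 192170 bp on the plus strand of chr13:44729474-44921643, and none of its 16 annotated starts, 8 of them of coding transcripts, had a peak within 1 kb in any library. Of all coding genes 35.3% had no promoter peak in any library, against 5.35% of those with a CpG-rich promoter, the class of both Jarid2 promoters. A start site of Jarid2 was nearest to a peak 6844 bases upstream, at chr13:44721787-44722630, where shGFP and shLuc replicates 2 and 3 had peaks of 604, 844 and 509 bp and replicate 1 had none. With starts taken from RefSeq, 5 in all, Jarid2 again had no peak within 1 kb in any library.

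Rnf2 encodes RING1B, the main ubiquitin ligase of PRC1 in ESCs. It lies on the minus strand of chr1:151458004-151500955, and its promoter peaks were of similar width in all libraries, 1161 bp in shGFP and 911, 1137 and 1263 bp in shLuc replicates 1, 2 and 3 (mean 1103.7 bp ± 178.4, SD, n = 3). They ranked between the 70.3rd and the 83.6th percentile. A start of the unclassified gene Gm36527 also lies within 1 kb of this region.

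Ring1 encodes RING1A, the paralogue of RING1B. This short gene of 3889 bp on the minus strand of chr17:34020792-34024680 had a promoter peak in shLuc replicate 2 only, 668 bp wide and at the 19.7th percentile of that library, and none in the other 3 libraries. The pattern of a promoter peak in shLuc replicate 2 alone was found for 1.69% of coding genes. The single peak covered 2 of its 3 starts. Starts of Gm26940, Mir219a-1 and Mir219c are also within 1 kb of it. The Ring1 promoter was the most GC-rich of the members, at 74.0%.

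The PRC1.6 genes had narrower promoter peaks than Ezh2. Pcgf6, the PCGF subunit that defines this complex, had peaks of 1024 bp in shGFP and 611, 870 and 703 bp in shLuc (mean 728.0 bp ± 131.3, SD, n = 3), so shGFP was above all shLuc values. These peaks reached 69 to 152 bases upstream of the 5′ end, less far than those of the other members, and 541 to 871 bases downstream of it. L3mbtl2, a reader with MBT domains, varied least, with 876 bp in shGFP and 826, 903 and 815 bp in shLuc (mean 848.0 bp ± 47.9, SD, n = 3), and shGFP lay inside the shLuc range.

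Mga, the DNA-binding scaffold of PRC1.6 that pairs with MAX, had promoter peaks of 909 bp in shGFP and 661, 698 and 844 bp in shLuc (mean 734.3 bp ± 96.8, SD, n = 3). Here too shGFP was above each shLuc library. A further peak of 516 bp in shLuc replicate 3 came within 733 bases of a start, and in shGFP a peak of 234 bp inside the same region was more than 1 kb from any start and was counted as a gene-body peak.

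E2f6, whose product recruits PRC1.6 to E2F sites, had promoter peaks of 985 bp in shGFP and 690 bp in shLuc replicate 2, while shLuc replicates 1 and 3 had none. This combination, present in the 2 longest lists and absent from the 2 shorter, was found for 2.59% of coding genes. Its peaks ranked at the 52.1st and 21.9th percentile and each covered 5 of the 7 starts.

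**Figure D2:**
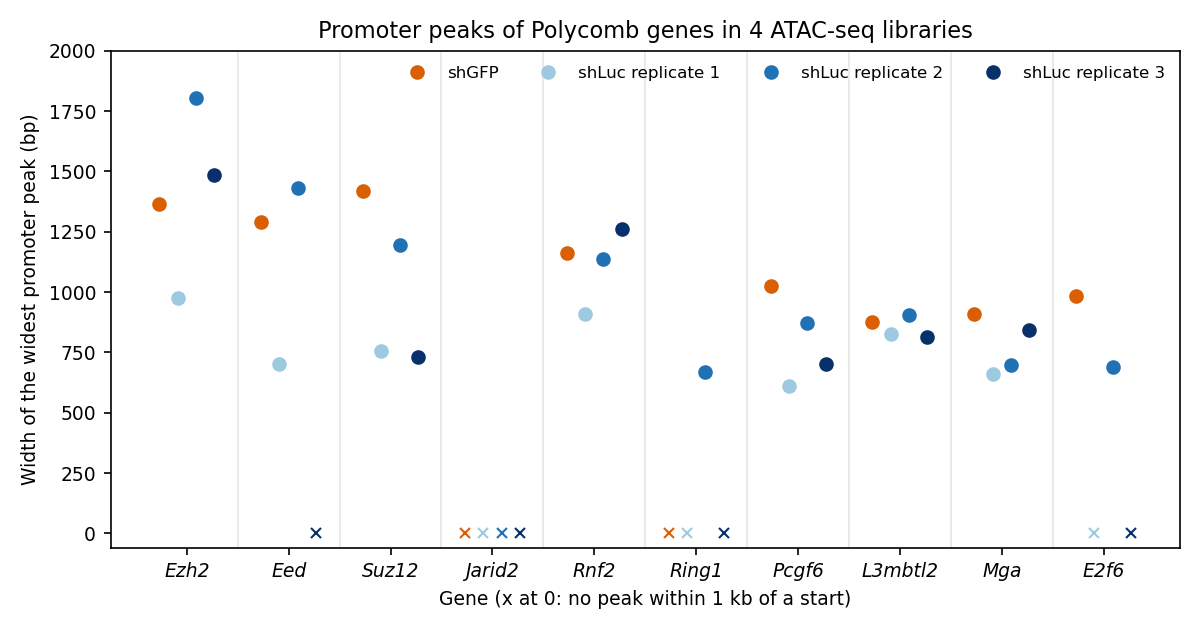
Width in bp (y axis) of the widest promoter peak of each gene (x axis), 1 point per ATAC-seq library, orange for shGFP and blue shades for shLuc replicates 1 to 3; a cross at 0 marks a library with no promoter peak. Ezh2 reaches 1805 bp, L3mbtl2 stays between 815 and 903 bp, and the crosses stand at Eed, Jarid2, Ring1 and E2f6.

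Across the set, the median width of the promoter peaks was 1092.5 bp in shGFP and 757.0, 903.0 and 829.5 bp in the shLuc libraries (mean 829.8 bp ± 73.0, SD, n = 3), a difference of 262.7 bp that exceeded the SD. The genes behind these medians are not the same in each library. Over the 6 members with 4 peaks, the median was 1092.5 bp in shGFP and 791.5, 1020.0 and 829.5 bp in shLuc (mean 880.3 bp ± 122.4), a difference of 212.2 bp. Across the 9327 coding genes with a promoter peak in all 4 libraries, the median was 1003.0 bp in shGFP. It was 715.0, 968.0 and 928.0 bp in shLuc replicates 1, 2 and 3 (mean 870.3 bp ± 136.0). The difference of 132.7 bp was smaller than the SD, and these medians had the same order as the lengths of the lists. Of the 6 members, shGFP was wider than the shLuc mean in 5, wider than each shLuc library in 3 (Suz12, Pcgf6 and Mga), and its distance from the shLuc mean exceeded the SD in the same 3. The ratio of shGFP to the shLuc mean ran from 0.961 for Ezh2 to 1.59 for Suz12. In 4 of the 6, shLuc replicate 1, the shortest list, had the narrowest peak. Over all coding genes, too, shGFP had the highest median and shLuc replicate 1 the lowest. The share of coding genes with each of these patterns was not counted, so whether the counts are particular to the members is not known.

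In shGFP 8 members had a promoter peak, and in the shLuc libraries 7.33 ± 1.53 (SD, n = 3), a difference of 0.667 that was smaller than the SD. The widest promoter peak held at least 1 annotated start in all 30 combinations of gene and library that had one. Promoter peaks lie within 1 kb of a start by definition, and the share over all coding genes was not counted.

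**Figure D3:**
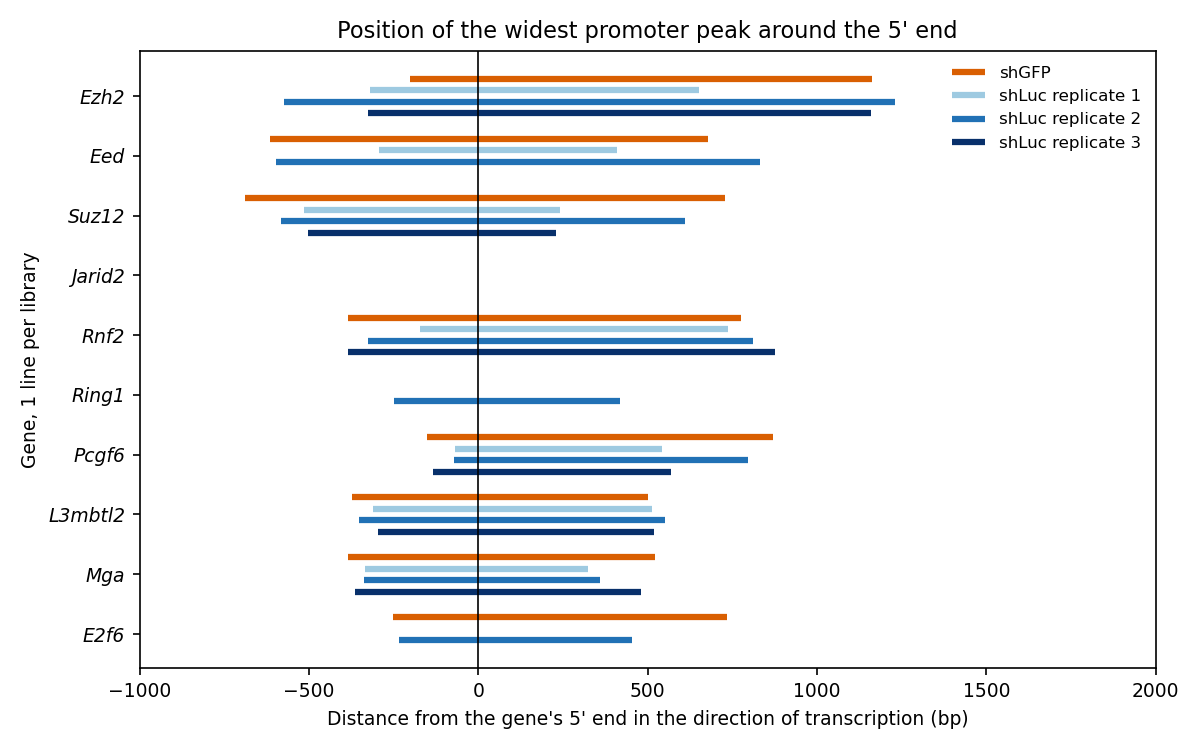
Position of the widest promoter peak of each gene (y axis, 1 line per library, colours as for the widths) relative to the 5′ end of the gene, in bp along the direction of transcription (x axis). Pcgf6 peaks lie mostly downstream of the 5′ end, with 69 to 152 bases upstream, while Suz12 peaks reach 503 to 688 bases upstream.

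Beyond the promoters, peaks of any library that overlapped were joined into regions over each gene and 50 kb on either side. There were 53 such regions at the 10 loci: 10 at promoters (2 of them at Mga and none at Jarid2), 8 in gene bodies and 35 in flanks. All 10 members had a flank peak in at least 1 library, beside 91.0% of coding genes, and 8 of them had flank peaks in all 4 libraries, beside 65.1%. A gene-body peak, one that overlaps the gene but is not within 1 kb of its starts, was found in at least 1 library for 5 members (33.6% of coding genes) and in all 4 for 1 member, Jarid2 (9.24%). Without shLuc replicate 1 this count was 2, since Rnf2 then joined Jarid2. The count asks for any gene-body peak in each library, and no single Rnf2 region was shared by the remaining libraries. One had peaks in shGFP and shLuc replicate 2 (469 and 904 bp), and another in shLuc replicates 2 and 3 (530 and 542 bp).

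The 3 kinds of region differed in sequence and in how often the libraries shared them. Promoter regions had a median GC content of 63.1%, a CpG ratio of 0.85 and 8.48% of bases in repeats. Gene-body regions were narrower, with a median width of 428.5 bp against 1004.5 bp at promoters, a CpG ratio of 0.16 and 20.4% repeats. Of the 35 flank regions, 12 came within 1 kb of a start of another coding gene, and these resembled the members' own promoters (median width 1013 bp, CpG ratio 0.77), whereas the other 23 had a median width of 637 bp and a CpG ratio of 0.19. All these widths are of merged regions, which can grow with the number of libraries joined. Of the promoter regions 6 of 10 were in all 4 libraries, and of the gene-body regions 1 of 8. Of the 12 at coding starts, 8 were in all 4 libraries, and of the other 23, 4 were. shLuc replicate 1 had a peak in 8 of the 12 and in 5 of the 23, and it was the only library without one for 3 and 9 of them. The same shares over all regions of the genome were not counted, so whether these counts are particular to the Polycomb loci is not known.

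The flank regions shared by all 4 libraries were mostly promoters of neighbours. They lay at Hikeshi next to Eed, at Utp6 and Crlf3 on either side of Suz12, at the start shared by Swt1 and Trmt1l next to Rnf2, at Taf5 and at Pdcd11 with Usmg5 upstream of Pcgf6, at Rangap1 downstream of L3mbtl2 and at Mapkbp1 downstream of Mga. The Taf5 region measured 1326, 1077, 1124 and 1137 bp in shGFP and shLuc replicates 1, 2 and 3, wider in each library than the Pcgf6 promoter peak 16.5 kb away. The Utp6 region, 30.1 kb from Suz12, measured 1459, 691, 1223 and 1057 bp.

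**Figure D4:**
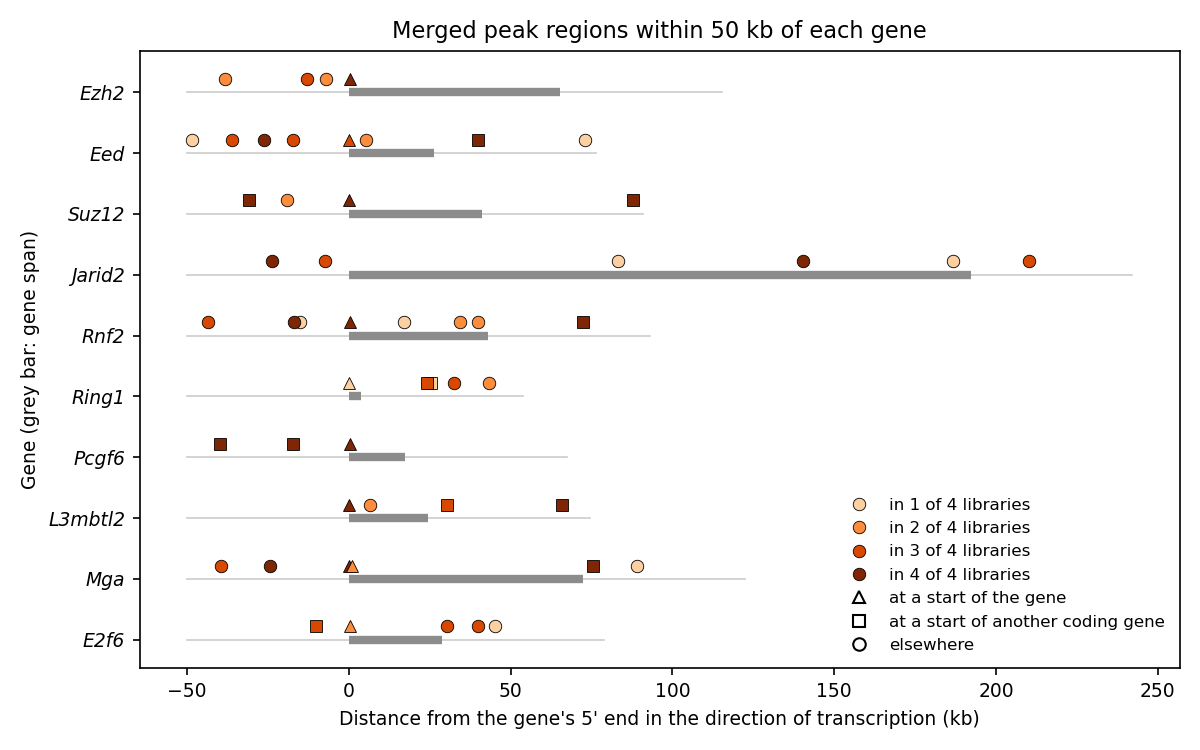
Merged peak regions around each gene (y axis) by distance from the gene's 5′ end along transcription, in kb (x axis); grey bars are gene spans, thin lines the 50 kb flanks, the darkest symbols regions in 4 of 4 libraries, triangles regions at starts of the gene, squares those at starts of another coding gene and circles the rest. Pcgf6 has 3 regions, all of them in 4 libraries, and Ring1 and E2f6 have none in 4.

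Shared regions away from starts of other coding genes were found at Eed, Jarid2, Rnf2 and Mga. The region 25.9 kb upstream of Eed, chr7:90006867-90007706, measured 775, 526, 679 and 806 bp in shGFP and shLuc replicates 1, 2 and 3. The region 16.5 kb upstream of Rnf2, chr1:151517500-151518148, measured 479, 601, 470 and 601 bp, and 66.6% of its bases were repeats. Upstream of Jarid2 by 23.5 kb, chr13:44705215-44705984 had peaks of 766, 289, 652 and 749 bp, so shLuc replicate 1 was the narrow one. With no peak at its starts, this was the nearest region to a Jarid2 start that all 4 libraries shared.

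The region upstream of Mga was rich in CpG. At chr2:119872354-119873421, 23.8 kb before the GENCODE start, all 4 libraries had peaks of 1013, 862, 1007 and 1055 bp, wider in each library than the peak at the annotated Mga promoter. Its GC content was 65.5% and its CpG ratio 0.98, with 3.09% of bases in repeats. RefSeq places 2 Mga starts inside it, at positions 119872503 and 119872513, which are used by 3 predicted transcripts and lie 24.7 kb from the nearest GENCODE start. Each of these starts was inside a peak in 3 libraries and within 1 kb of a peak in 4. By the RefSeq annotation, then, Mga had peaks in all 4 libraries at both its curated and its predicted upstream starts.

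The gene-body region that all libraries shared, in an intron of Jarid2, was unusual in its edges. At chr13:44869566-44870023, 28783 bases from the nearest start, the peaks were 458, 457, 457 and 458 bp wide. Of 14240 merged regions of the genome with exactly 1 peak in each of the 4 libraries, it was the only one whose start and end agreed within 2 bp in all of them. The sequence is not unique: BLAST found 15 other places on the assembled chromosomes that matched at least 60% of it at 90% identity or more, at 90.9% to 98.9%, and 8 of these overlapped a peak in at least 1 library and 5 in all 4. The authors placed reads with several equally good positions at random, and the part of this placement in the Jarid2 peak was not tested. What kind of repeated sequence this is was not determined here. Without it, no member had a gene-body peak in all 4 libraries. Only 2 other regions at the 10 loci had such copies: one in 2 libraries 38.0 kb upstream of Ezh2, made up of repeats for 100% of its bases, with 4 copies, and one in shLuc replicate 2 at the MHC class I gene H2-K1, 21.4 kb from Ring1, with 13 copies on chromosome 17. H2-K1 was chosen after its values were seen.

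The central 200 bases of 3 of these regions are shown, on the plus strand of GRCm38.p6, because the results outside promoters turn on them. In the region upstream of Jarid2 (chr13:44705500-44705699) capitals mark the only OCT word ATGCAAAT, present here as its reverse complement, that was found in the 5 shared regions away from GENCODE starts. In the Jarid2 intron (chr13:44869695-44869894) and upstream of Mga (chr2:119872788-119872987) they mark CG dinucleotides.
Jarid2 upstream: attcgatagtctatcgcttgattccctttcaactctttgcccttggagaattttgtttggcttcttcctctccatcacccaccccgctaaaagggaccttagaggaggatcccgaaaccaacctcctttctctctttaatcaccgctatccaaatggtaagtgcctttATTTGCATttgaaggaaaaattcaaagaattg
Jarid2 intron: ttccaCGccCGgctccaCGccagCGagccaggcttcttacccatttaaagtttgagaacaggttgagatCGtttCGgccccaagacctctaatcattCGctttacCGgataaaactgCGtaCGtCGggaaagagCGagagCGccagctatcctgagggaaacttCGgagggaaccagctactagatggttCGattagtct
Mga upstream: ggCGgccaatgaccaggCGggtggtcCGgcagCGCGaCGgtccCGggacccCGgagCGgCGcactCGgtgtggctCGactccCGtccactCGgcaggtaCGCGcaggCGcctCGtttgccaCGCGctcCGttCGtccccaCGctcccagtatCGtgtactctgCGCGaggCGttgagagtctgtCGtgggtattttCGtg

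Over the central 300 bases of the 5 regions, the SOX word CATTGTT was found in those near Eed and Rnf2, and the words for KLF (GGGTGTGG), ESRRB (TCAAGGTCA) and the CTCF consensus in none. Among 5271 regions of the genome that all 4 libraries shared and that were over 1 kb from any GENCODE start, 2.07% held the OCT word, 2.81% the SOX word, 1.59% the KLF word, 0.379% the ESRRB word and 2.28% the CTCF consensus in a window of the same length.

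Of 39 further Polycomb genes, 26 had a promoter peak in all 4 libraries, which is 66.7% beside 42.5% of coding genes and 70.6% of CpG-rich ones. How many of the 39 have a CpG-rich promoter is not given here. All 6 partners in PRC1.6 had a promoter peak in all 4 libraries (Max, Tfdp1, Cbx3, Hdac1, Hdac2 and Wdr5). So did all 4 genes of the deubiquitinase PR-DUB, which removes the PRC1 mark (Bap1, Asxl1, Asxl2 and Asxl3). Among 9 other PRC2 genes there were 5 (Ezh1, Rbbp4, Phf1, Phf19 and Lcor), and among 20 other PRC1 genes 11 (Pcgf3, Pcgf5, Cbx2, Cbx7, Phc2, Phc3, Scmh1, Rybp, Yaf2, Kdm2b and Auts2). Ezh1, the alternative to Ezh2 as catalytic subunit, had narrower peaks than Ezh2 in each library, 819 bp in shGFP and 624, 825 and 558 bp in shLuc. Rybp, a subunit of variant PRC1, had peaks of 1984, 1164, 1761 and 1843 bp, wider than Rnf2 in each library.

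Promoter peaks were absent from all 4 libraries at Pcgf2, Phc1, Bcor and Bcorl1, all PRC1 genes. Bmi1 and Epop had a promoter peak in shGFP only, 1594 and 1389 bp wide, and were named after their values were seen. Of the PCGF genes, which define the kinds of PRC1, Pcgf3, Pcgf5 and Pcgf6 had promoter peaks in 4 libraries, Pcgf1 in 3, Bmi1 in 1 and Pcgf2 in none.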

How the data were processed

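Open chromatin was profiled by ATAC-seq in 1 shGFP and 3 shLuc libraries of mouse ESCs. For each library a separate list of peaks was deposited by the authors, with 3 columns (chromosome, start and end) and no count, signal or score. Per the labels, bcl2fastq, Bowtie2 and MACS2 were used on mm10, and the study's methods state that the best alignment was kept, ties were placed at random and concordant pairs were used. Thresholds and a shift for the transposase are not given in the sources used here. The study's sample table lists the fewest reads for shLuc replicate 1.

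Groups followed the sample titles. Nothing in the labels says that replicates came from separate cultures, so their spread may be technical; any pair of lists had 3 to 40 peaks in common base for base, so none had been deposited more than once. Positions were compared with GENCODE release 21 starts (Python 3.11.15, numpy 2.4.6), sequences were read from GRCm38.p6 (samtools 1.23.1), copies were sought with BLAST 2.17.0 at an E-value of 1e-10, and figures were drawn with matplotlib 3.10.9. Percentiles rank a width among the widest promoter peaks of coding genes in the same list, ties counting equally to either side. The functions were tested on simulated peaks. Values are given per library with the SD of the shLuc libraries. Named were all members, other Polycomb genes with promoter peaks in all libraries or in none, and neighbours with a start within 1 kb of a member's start or of a region shared by all libraries. The members, lists and alternatives were chosen with earlier results of these data known. Knockdown libraries were not analysed here.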

Additional observations from a re-analysis of the deposited data

How the results depend on the processing

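The alternatives were other windows around starts (500 bp and 5 kb), starts of coding transcripts only, the midpoint of a peak in place of its edge, the widest 50% of each list, lists shortened to an equal length by width, other flanks and merging, and each shLuc library left out; RefSeq starts and the removal of the Jarid2 intronic region were added after seeing the data. Of 63 values, 55 stayed close to the reported one, and no difference changed sign. Many of the values are counts, which cannot change sign, and a difference of 0.0 was not treated as a change. Close means within 1.5 times for a count and within the SD of the shLuc libraries for a difference between hairpins. For the excess over coding genes it means within a wide exact 95% binomial interval for 10 genes, from -16.3 to 45.3 percentage points. The genes were chosen by name and not sampled, so this interval is only a bound and measures no spread of these data. These bounds are lenient, since a deficit or a hairpin difference of 0.0 members counts as close. Some alternatives left a value as it was: the width difference stayed at 262.7 bp with 500 bp windows, coding transcripts, midpoints and the widest 50%. The members with a promoter peak in all libraries numbered 5 to 7, and Jarid2 had none under any of these settings. At equal list lengths Mga left the set, and with 5 kb windows, or without shLuc replicate 3, Eed joined it.

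The number of members with a gene-body peak in all libraries, 1 as reported, was 0 with the widest 50% of each list, 0 at equal list lengths and 0 without the Jarid2 intronic region; it ran from 1 to 2 when single shLuc libraries were left out. The 43 regions in gene bodies and flanks became 85 with flanks of 100 kb, and 22 both with the widest 50% of each list and at equal list lengths. The width difference between shGFP and the shLuc mean, 262.7 bp, was 175.2 bp at equal list lengths and 226.3 to 299.3 bp with single libraries left out. Shorter lists and longer flanks change these numbers by construction. The excess of members over all coding genes with a promoter peak in all libraries was 17.5 percentage points. It ran from 7.49 without shLuc replicate 1 to 25.3 without replicate 3, and was 34.7 with the widest 50%. There was no such excess over CpG-rich coding genes, the class of all 10 members: 60% of members had these peaks and 70.6% of CpG-rich genes. That comparison was not repeated under the alternatives. The shGFP excess of 0.667 members with a promoter peak ran from 0.0 without shLuc replicate 3 to 1.5 without replicate 2, and was 1.67 at equal list lengths. No paired analysis was possible because shGFP is 1 library without a replicate number.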
